A study of Mus musculus with 32 samples.

Results

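Kinesins and cytoplasmic dynein are the motor proteins that carry cargo along microtubules, and the RNAs of 67 genes of these motors were compared here between the dendrites and the soma of the same mouse neuron. The members were all genes whose symbols begin with Kif, Klc, Dync1 or Dync2, Dynl or Dctn and carry the family's number or letter, without 4 names ending in -ps. They comprised 45 kinesin genes and 22 dynein or dynactin genes among 44081 genes counted.

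The study separated the dendrites from the soma of 16 single hippocampal neurons with a micropipette, and amplified and sequenced the poly-adenylated RNA of each compartment on its own, which gave 16 dendrite and 16 soma samples. The neurons came from C57BL/6 embryos of day 18 and had been grown in culture for 15 days, with no treatment named. Each sample is material of 1 cell and not a pool. The RNA of both compartments went through 3 rounds of amplification in neurons 1 to 4 and through 2 rounds in the other 12.

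Most kinesins walk toward the plus end of microtubules and dynein toward the minus end. Axons hold microtubules of uniform polarity, plus end out, whereas dendrites of mammalian neurons hold microtubules of both polarities, so that both kinds of motor can carry cargo into and out of dendrites. Kinesins are grouped into families by their motor domain, and dynein is a large complex of a heavy chain with intermediate, light intermediate and light chains, which depends on a second complex, dynactin, for long movement. Kinesin-1 is known as a component of granules that carry RNA into dendrites.

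Reads on 3′UTRs numbered 646521 to 6954420 in the dendrites and 925525 to 21169974 in the somas. Mitochondrial genes took 15.3% ± 9.80 (SD, n = 16) of the reads in dendrites and 2.02% ± 2.12 (SD, n = 16) in somas. The summed level of 6 neuronal markers was 7782 to 29198 normalized reads in dendrites and 9054 to 36882 in somas. That of 5 pyramidal cell markers, which are expressed by excitatory neurons, had a median of 441 in dendrites and 101 in somas and was 0 in 1 sample of each compartment. For 6 interneuron markers the medians were 9645 and 29603, and for 6 astrocyte markers 449 and 155. Markers of microglia, oligodendrocytes and endothelial cells had medians of 18.0, 15.9 and 3.99 in dendrites and of 0.645, 7.39 and 0.609 in somas. The part of other cells in the values below was not tested.

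Motor gene RNA was present in every dendrite sample. Kinesins took a median of 0.422% of the 3′UTR reads in dendrites (0.217 to 0.740%) and of 0.392% in somas (0.213 to 0.482%). Dynein and dynactin genes took a median of 0.342% in dendrites (0.192 to 0.521%) and of 0.351% in somas (0.218 to 0.507%). The ranges of the compartments overlapped in both families. Overlap of ranges does not use the pairing by neuron, and the difference within a neuron was not tested for these shares.

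With a gene counted as detected at 10 or more reads, dendrites held 14.9 ± 3.88 kinesins (SD over 16 neurons) and somas 19.1 ± 2.67, and the soma held more in 13 of 16 neurons. For dynein and dynactin the numbers were 13.6 ± 3.31 in dendrites and 18.7 ± 2.36 in somas, with more in the soma in 15 of 16 neurons and an equal number in the other. With the reads of each pair scaled to the smaller total, the somas still held 17.4 ± 1.59 kinesins and 17.2 ± 1.61 dynein or dynactin genes. The dendrites of neurons 15 and 16 stood apart from the others. They held 6 and 8 kinesins, and mitochondrial genes took 35.8% and 32.4% of their reads, the highest shares of all samples.

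**Figure D1:**
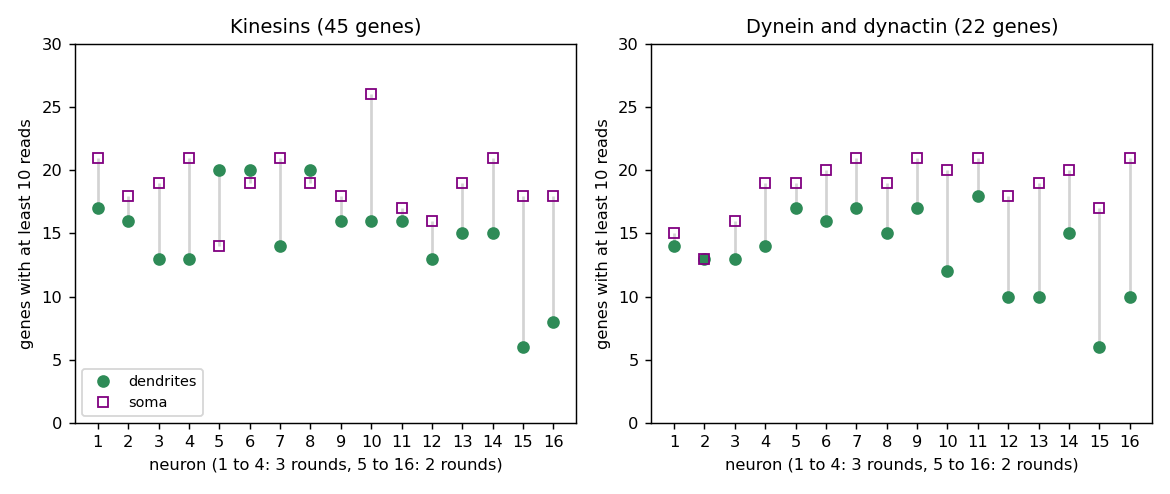
Number of kinesin genes (left) and dynein or dynactin genes (right) with at least 10 reads in the dendrites (filled circles) and the soma (open squares) of each of the 16 neurons. The soma lies above the dendrites in 13 neurons for kinesins and in 15 for dynein and dynactin, and the lowest dendrite values for kinesins are those of neurons 15 and 16.

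A set of 20 motor genes had reads in at least 15 of the 16 dendrites, 11 of them kinesins and 9 of the dynein or dynactin families. Of all genes tested between compartments, 17.1% met the same rule. The kinesins were Kif5a, Kif5b, Kif5c, Klc1, Klc2, Kif1a, Kif1b, Kif3a, Kif3c, Kif21a and Kif21b. The others were Dync1h1, Dync1li2, Dynll1, Dynll2, Dynlrb1, Dynlt1a, Dynlt3, Dctn2 and Dctn3. These are the heavy and light chains of kinesin-1, long-range kinesins of the kinesin-2, kinesin-3 and kinesin-4 families, and 1 heavy chain, 1 light intermediate chain, 5 light chains and 2 dynactin subunits. With 10 or more reads asked for, the set fell to 7 kinesins and 5 dynein or dynactin genes.

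For the comparison of compartments, 41 members had at least 1 read in at least 16 samples, 20 kinesins and 21 dynein or dynactin genes. Normalized reads below are read counts divided by the size factor of the sample. The log2 fold change is that of dendrites over soma from edgeR's quasi-likelihood test with neuron as a block, and p-values were adjusted over 10880 genes by the Benjamini-Hochberg method. Over all genes tested, the median of this value was -1.49, so that a value of 0 already lies well above the typical gene. Because the scaling between compartments sets where 0 lies, the position of a gene relative to this median is given as well.

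At an adjusted p of at most 0.05, 0 kinesins were higher and 0 were lower in dendrites, and 0 dynein or dynactin genes were higher and 3 were lower. Of all genes tested, 0.827% were called higher and 5.71% lower. The 3 lower genes were Dync2li1, Dync1li1 and Dync1i2. At an unadjusted p under 0.05 in the same test, 2 kinesins were higher (Kif1a and Kif5c) and 4 were lower, beside 3.55% and 26.7% of all genes, and 0 dynein or dynactin genes were higher and 4 were lower. DESeq2 with the same paired design called 2 kinesins higher and 7 lower and 0 dynein or dynactin genes higher and 7 lower, where it called 4.26% of all genes higher and 46.2% lower. The 3 of 41 members called lower by edgeR thus stood near the share of all genes, and the 14 of 41 called by DESeq2 stood under it. Medians of the log2 fold change were -0.71 over the kinesins tested and -1.08 over the dynein and dynactin genes, against -1.49 over all genes. A set of 14 of 20 kinesins and 13 of 21 dynein or dynactin genes lay above the median gene.

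**Figure D2:**
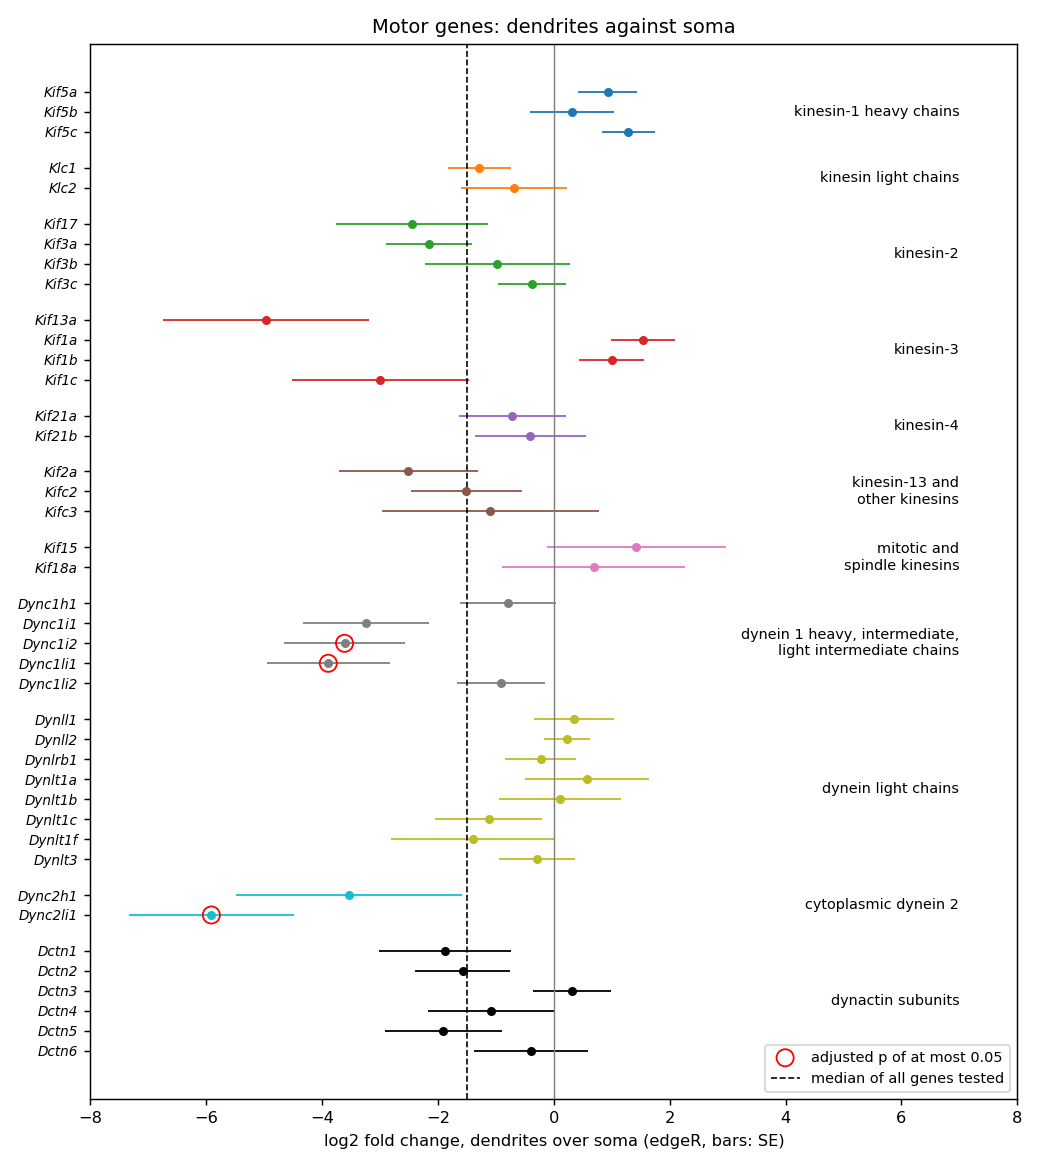
Log2 fold change of dendrites over soma with its SE (edgeR, 16 neurons) for the 41 motor genes tested, grouped by role, with a solid line at 0 and a dashed line at the median of all genes tested (-1.49). Red rings mark the 3 genes called, Dync1i2, Dync1li1 and Dync2li1, while Kif5a, Kif5b, Kif5c, Kif1a and Kif1b lie to the right of 0 (Kif5b becomes -0.012 with DESeq2's size factors).

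Kinesin-1 heavy chains are the motor subunits of conventional kinesin. Kif5a, Kif5b and Kif5c had reads in all 16 dendrites and all 16 somas. Kif5c (chr2:49619298-49774778, plus strand, GRCm38), which is enriched in neurons, had 548, 1962 and 6580 normalized reads as the lowest, median and highest dendrite value and 188, 923 and 7232 in somas. The ranges overlapped, and the dendrites were the higher sample in 13 of 16 neurons. Its log2 fold change was 1.29 (SE 0.46), which did not pass the edgeR threshold (adjusted p = 0.0711) and passed that of DESeq2 (1.01, SE 0.37, adjusted p = 0.0149). With 2 rounds of amplification it was 1.48 and with 3 rounds 0.94, and 1.85 on exon counts (edgeR adjusted p = 0.00906).

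Kif5a (chr10:127225696-127263348, minus strand), the neuronal heavy chain that is mutated in a form of hereditary spastic paraplegia, had 481, 1043 and 9468 normalized reads in dendrites and 115, 804 and 1361 in somas. The dendrites were higher in 10 neurons and the soma in 6. The log2 fold change was 0.93 (SE 0.51, edgeR adjusted p = 0.206). Kif5b, the ubiquitous heavy chain, had 6.76, 374 and 1987 in dendrites and 172, 373 and 716 in somas, with 8 neurons higher on each side. Its log2 fold change was 0.31 (SE 0.73, edgeR adjusted p = 0.781), which became -0.012 with DESeq2's size factors. All 3 heavy chains lay above the median gene, by 2.78, 2.42 and 1.80 for Kif5c, Kif5a and Kif5b.

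Kinesin light chains bind the heavy chains and link them to cargo. Klc1 (chr12:111758849-111807844, plus strand) lay on the other side of 0 from the heavy chains in the edgeR test, but was at 0.25 with the median gene set to 0. It had 0, 772 and 1623 normalized reads as the lowest, median and highest dendrite value and 1221, 1965 and 4239 in somas, and the soma was the higher sample in 16 of 16 neurons. The log2 fold change was -1.29 (SE 0.55, edgeR adjusted p = 0.113), close to that of the median gene, from which it differed by 0.20, and DESeq2 called it lower (-1.58, adjusted p = 0.00315). Klc2 had a log2 fold change of -0.70 (SE 0.91, edgeR adjusted p = 0.598). Klc3 and Klc4 had reads in 2 and 6 dendrites and were not tested.

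Kinesin-3 motors carry synaptic vesicle precursors and dense core vesicles. Kif1a (chr1:93015464-93101951, minus strand), the neuronal member, had 134, 1850 and 7326 normalized reads in dendrites and 82.5, 882 and 1715 in somas. The median dendrite lay above the highest soma, although the ranges overlapped, and dendrites were higher in 14 of 16 neurons. Its log2 fold change of 1.54 (SE 0.55) was the largest of the members, 3.03 above the median gene. It did not pass the edgeR threshold (adjusted p = 0.0724) and passed that of DESeq2 (1.28, SE 0.47, adjusted p = 0.0167). The values within the groups of 2 and 3 rounds were 1.57 and 1.64, and exon counts gave 1.99 (edgeR adjusted p = 0.0109).

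Kif1b, which carries mitochondria and synaptic vesicle precursors by its different isoforms, had 140, 852 and 2997 normalized reads in dendrites and 134, 567 and 1492 in somas. Dendrites were higher in 12 of 16 neurons, with a log2 fold change of 1.00 (SE 0.56, edgeR adjusted p = 0.212). The other kinesin-3 genes were sparse in dendrites. Kif13a, which carries endosomal cargo, was found in 6 dendrites and 12 somas (median normalized reads, 0 and 45.4). Its log2 fold change of -4.96 (SE 1.78, edgeR adjusted p = 0.0712) was -1.91 on exon counts, and DESeq2 called it lower (adjusted p = 0.00139). Kif1c, found in 9 dendrites and 13 somas, had a log2 fold change of -2.99 (SE 1.53, edgeR adjusted p = 0.175). DESeq2 called Kif1c lower (adjusted p = 0.00177). Kif16b, an early endosome motor, had reads in 2 dendrites and 12 somas, and Kif13b in 1 and 7.

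**Figure D3:**
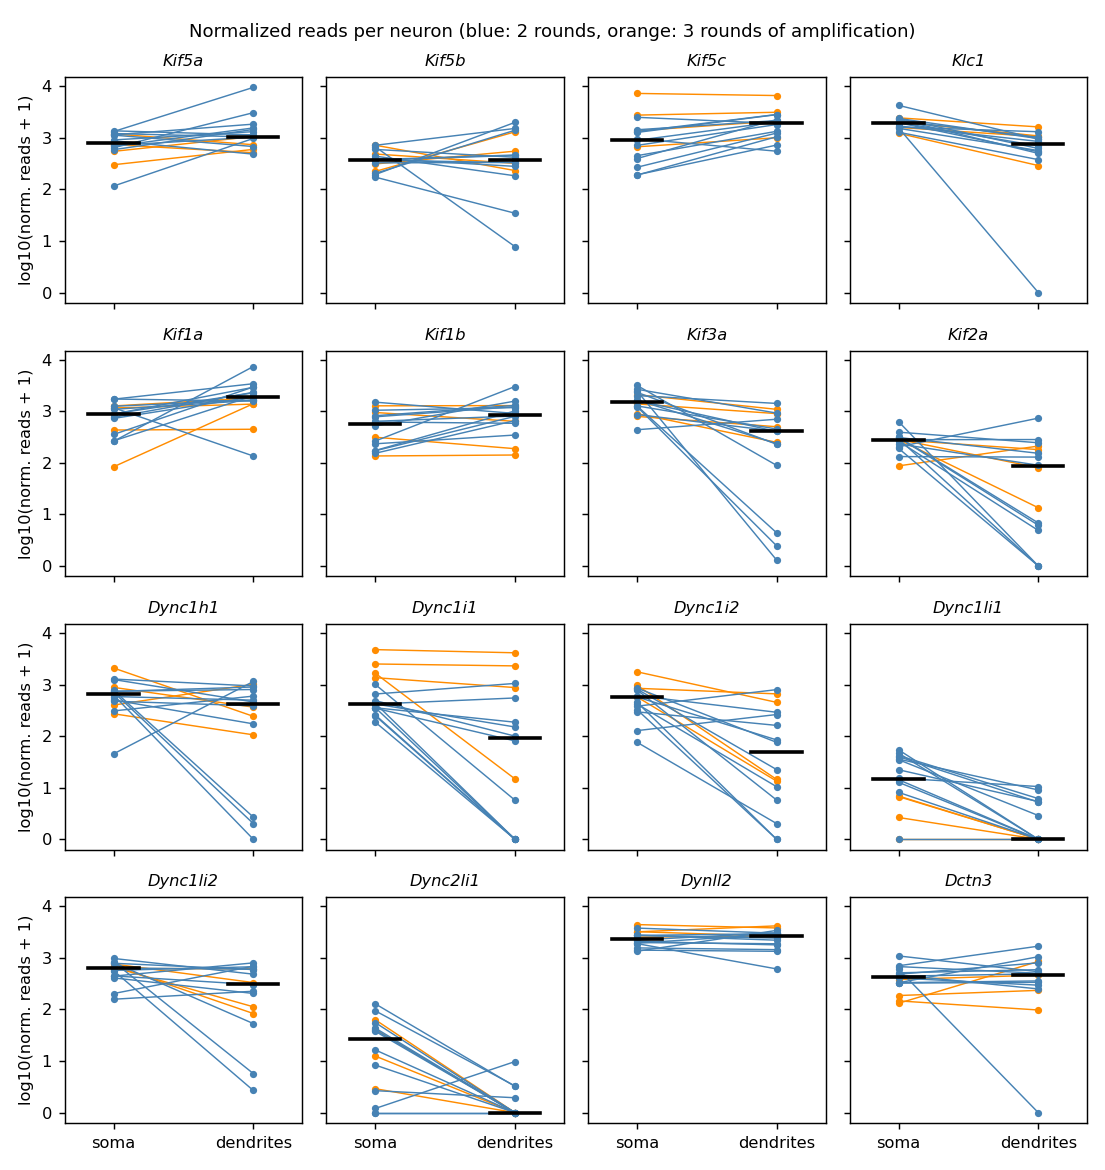
Normalized reads of 16 motor genes on a log10 scale after adding 1, with a line for each neuron from its soma to its dendrites and a bar at the median of each compartment (blue, 12 neurons with 2 rounds of amplification; orange, 4 with 3 rounds). Lines of Kif5c and Kif1a rise toward the dendrites in 13 and 14 neurons, lines of Klc1 fall in all 16, and those of Dync1i2 fall in 14.

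Kinesin-2 is a heterotrimeric motor of Kif3 subunits and an adaptor, used in dendrites and in cilia. Kif3a (chr11:53567379-53601967, plus strand) had 0.298, 405 and 1409 normalized reads in dendrites and 435, 1496 and 3157 in somas, and the soma was higher in 15 of 16 neurons. Its log2 fold change was -2.16 (SE 0.74), which did not pass the edgeR threshold (adjusted p = 0.0631) and passed that of DESeq2 (adjusted p = 0.00104). The value was -2.92 in neurons with 2 rounds and -0.39 in neurons with 3 rounds, a difference that did not pass the edgeR interaction test, in which 0 of 41 members had even an unadjusted p under 0.05 and 0 passed after adjustment.

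Kif3b and Kif3c, its partners, lay closer to 0. Kif3c had 99.3, 531 and 1507 normalized reads in dendrites and 415, 702 and 1421 in somas, with a log2 fold change of -0.38 (SE 0.59, edgeR adjusted p = 0.665). Kif3b had medians of 265 and 295, 8 neurons higher on each side and a value of -0.98 (SE 1.25, edgeR adjusted p = 0.587). The signs of both depended on the scaling, as Kif3b was at 0.56 and Kif3c at 1.16 with the median gene set to 0. Whether Kif3a differed from Kif3b or Kif3c was not tested. Kif17, the homodimeric kinesin-2 that carries NMDA receptor subunits in dendrites, was low in both compartments. It was found in 5 dendrites and 11 somas (median normalized reads, 0 and 1.27, log2 fold change -2.45, SE 1.32, edgeR adjusted p = 0.195). DESeq2 called Kif17 lower (-3.70, adjusted p = 0.00776), whereas its value in neurons with 3 rounds was 1.36.

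The kinesin-4 genes Kif21a and Kif21b, of which Kif21b is known from dendrites, had reads in 15 dendrites each. Their medians were 117 and 194 normalized reads in dendrites and 278 and 241 in somas. Their log2 fold changes were -0.72 (SE 0.92) and -0.41 (SE 0.96), both positive with the median gene set to 0, and neither passed the test. Kif2a, a kinesin-13 that depolymerizes microtubules, had 0, 83.8 and 730 normalized reads in dendrites and 85.9, 280 and 625 in somas, and the soma was higher in 13 of 16 neurons (log2 fold change -2.51, SE 1.20, edgeR adjusted p = 0.150, DESeq2 adjusted p = 0.000974). Among the remaining kinesins, Kifc2 had a log2 fold change of -1.51 (SE 0.96) and Kifc3 of -1.10 (SE 1.87), and neither passed the edgeR test. DESeq2 called Kifc2 lower (-1.81, adjusted p = 0.0104). With the median gene set to 0, Kifc2 was at 0.022 and Kifc3 at 0.34.

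Mitotic and spindle kinesins act in cell division, and these neurons do not divide. Of 11 such genes 2 entered the test, Kif15 (log2 fold change 1.42, SE 1.55) and Kif18a (0.69, SE 1.58), and neither passed. Both had reads in 9 dendrites, with medians of 1.69 and 1.33 normalized reads. The other 9 were too sparse for the filter, and 1 of them had no 3′UTR read in any sample. The summed level of 8 markers of dividing cells had a median of 90.4 normalized reads in dendrites (0 to 876) and of 6.77 in somas (0 to 229). Each of these 8 had reads in at least 3 dendrites. Their part in the values of these kinesins was not tested.

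Within a library, the share of each family's reads that went to a group of genes does not depend on the scaling between libraries. Kinesin-1 heavy chains took 18.7, 37.2 and 75.9% of the kinesin reads as the lowest, median and highest dendrite share and 14.2, 22.2 and 47.0% in somas, with the dendrites higher in 15 of 16 neurons. Kinesin light chains took 1.27, 7.40 and 21.7% in dendrites and 9.54, 17.6 and 42.6% in somas, with the soma higher in 16 of 16. Kinesin-3 was higher in the dendrites in 13 neurons (medians 28.5 and 15.7%), and kinesin-2 was higher in the soma in 14 (medians 14.3 and 27.7%). Kif5a, Kif5b, Kif5c, Kif1a and Kif1b together, a set chosen after their values were seen, took a median of 68.2% of the kinesin reads in dendrites (31.1 to 90.6%) and of 36.1% in somas (22.8 to 60.9%). The shares add up to a fixed total, so a higher share of some groups lowers that of others, and shares compare reads and not molecules between genes.

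**Figure D4:**
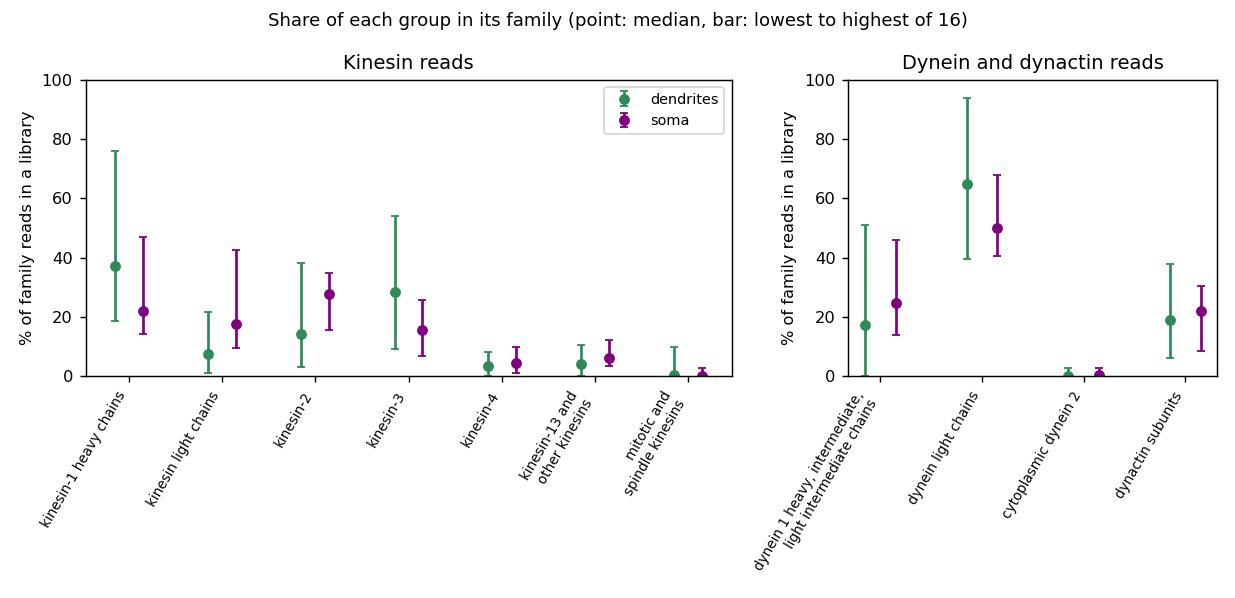
Share of kinesin reads (left) and of dynein and dynactin reads (right) that each group took within a library, as the median (point) and the lowest to highest value (bar) of 16 dendrites (green) and 16 somas (purple). Kinesin-1 heavy chains have a median of 37.2% in dendrites and 22.2% in somas, and dynein light chains of 64.7% and 49.9%.

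In cytoplasmic dynein 1, the heavy chain carries the motor, the intermediate chains bind dynactin and the light intermediate chains bind cargo adaptors. Dync1h1, the heavy chain, had 0, 422 and 1144 normalized reads in dendrites and 44.3, 667 and 2085 in somas, with a log2 fold change of -0.79 (SE 0.83, edgeR adjusted p = 0.503). Dync1li2, a light intermediate chain, had 1.69, 317 and 799 in dendrites and 157, 628 and 973 in somas, and its log2 fold change was -0.92 (SE 0.76, edgeR adjusted p = 0.396). Both lay above the median gene, by 0.70 and 0.58, and both turned positive when the median gene was set to 0.

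The other light intermediate chain, Dync1li1 (chr9:114688790-114724302, plus strand), was called lower in dendrites. It had reads in 6 dendrites, with a highest value of 9.53 normalized reads, and in 14 somas, with a median of 13.8 and a highest value of 53.2. The soma was the higher sample in all 14 neurons that had reads. The log2 fold change was -3.89 (SE 1.06, edgeR adjusted p = 0.0248; DESeq2 adjusted p = 0.000883). At most 32 reads were counted in any dendrite and 204 in any soma, so the level is close to the limit of detection in the dendrites. The call was kept in 12 of 16 fits that left out a neuron and was lost without neuron 3, 4, 7 or 12, and on exon counts (-2.59, adjusted p = 0.174). It was also lost with no filter (edgeR adjusted p = 0.197), with the median gene set to 0 (0.141) and with no replicate block (0.0938). With 2 rounds only and with 3 rounds only the edgeR adjusted p was 0.0815 and 0.845.

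Of the intermediate chains, 1 was called. Dync1i2 (chr2:71211706-71263303, plus strand), the ubiquitous one, had 0, 48.1 and 795 normalized reads in dendrites and 75.2, 574 and 1762 in somas, and the soma was higher in 14 of 16 neurons. It was called, with a log2 fold change of -3.61 (SE 1.04, edgeR adjusted p = 0.0319), 2.12 below the median gene, and exon counts gave -3.54 (adjusted p = 0.0449). The call was kept in 5 of 16 fits that left out a neuron, those without neuron 2, 5, 11, 14 or 15. Log2 fold changes over all 16 fits ran from -3.89 to -3.03. The call was lost with no filter (edgeR adjusted p = 0.0529), with at least 10 reads in 16 samples (0.0630) and with 2 or 3 rounds only (0.0866 and 0.706). It was also lost with the median gene set to 0 (-2.09, adjusted p = 0.279) and with no replicate block (-1.69, adjusted p = 0.219). Dync1i1 (chr6:5725639-6028039, plus strand), the neuronal intermediate chain, had 0, 89.2 and 4116 normalized reads in dendrites and 186, 425 and 4743 in somas. The soma was higher in 14 of 16 neurons, and the log2 fold change of -3.24 (SE 1.08) did not pass the edgeR threshold (adjusted p = 0.0568) and passed that of DESeq2 (adjusted p = 4.54e-05). Its values were -4.62 with 2 rounds and -0.75 with 3 rounds.

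Without neurons 15 and 16, Dync1i2 and Dync1li1 no longer passed the edgeR test (-2.83, adjusted p = 0.0737, and -3.69, adjusted p = 0.0619), Dync2li1 did, and Kif1a and Kif5c were called higher. That alternative was chosen after the data were seen.

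Dynein light chains also occur outside the motor as dimerization hubs of many proteins. Dynll2 had 610, 2626 and 4173 normalized reads in dendrites and 1344, 2372 and 4416 in somas. Its log2 fold change was 0.23 (SE 0.40, edgeR adjusted p = 0.701), and -0.030 with DESeq2's size factors. Dynll1 had medians of 469 and 397 (log2 fold change 0.35, SE 0.69), Dynlt3 of 1206 and 1286 (-0.29, SE 0.65) and Dynlrb1 of 451 and 670 (-0.23, SE 0.62), and none passed the edgeR test. All 8 light chain genes tested lay above the median gene. The signs of Dynlt3 and Dynlrb1 changed with the scaling, and with the median gene set to 0 Dynll2 was called higher. Dynlt1a, Dynlt1b, Dynlt1c and Dynlt1f are near-identical copies, between which uniquely mapped reads can be split, so their values are uncertain. Light chains took 39.6, 64.7 and 93.7% of the dynein and dynactin reads in dendrites and 40.5, 49.9 and 67.8% in somas, higher in the dendrites in 13 of 16 neurons.

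Cytoplasmic dynein 2 drives transport from the tip to the base of cilia. Its light intermediate chain Dync2li1 (chr17:84626496-84655588, plus strand) had reads in 4 dendrites, at most 8.78 normalized reads, and in 14 somas, with a median of 26.1 and a highest value of 128. The soma was higher in 13 of the 14 neurons with reads. The log2 fold change was -5.91 (SE 1.43, edgeR adjusted p = 0.0150; DESeq2 adjusted p = 6.22e-05), and 1.20% of the genes tested had a lower value. The call was kept in all 16 fits that left out a neuron, and exon counts gave -5.19 (adjusted p = 0.0428). It was lost with no filter (edgeR adjusted p = 0.0909), with 2 rounds only (0.0642) and with 3 rounds only (0.716). The dendrites held 15 reads together and at most 7 in any, so the level is close to the limit of detection there. The heavy chain Dync2h1 had reads in 6 dendrites and 13 somas and a log2 fold change of -3.54 (SE 1.96, edgeR adjusted p = 0.206).

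Dynactin joins dynein to cargo and makes its movement processive. Dctn3, a small subunit of the shoulder, had 0, 475 and 1683 normalized reads in dendrites and 131, 423 and 1089 in somas, and the dendrites were higher in 10 of 16 neurons (log2 fold change 0.31, SE 0.68). Dctn1, the large subunit p150 Glued that binds microtubules, had medians of 21.4 and 61.6 (-1.88, SE 1.14), and Dctn2, dynamitin, of 306 and 719 (-1.57, SE 0.82). Dctn5 had 101 and 276 (-1.91, SE 1.01), Dctn4 71.2 and 169 (-1.08, SE 1.09) and Dctn6 222 and 250 (-0.39, SE 0.98). None of the 6 passed the edgeR test, while DESeq2 called Dctn1, Dctn2 and Dctn5 lower. With the median gene set to 0, Dctn4 and Dctn6 turned positive.

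The dendritic read fraction, the normalized reads of the dendrites divided by those of both compartments of a neuron, showed how much members varied among neurons. It was 0.669 ± 0.216 (SD, n = 16) for Kif1a, 0.654 ± 0.148 for Kif5c, 0.608 ± 0.175 for Kif1b and 0.598 ± 0.179 for Kif5a. Lower values were 0.267 ± 0.110 for Klc1, 0.228 ± 0.180 for Kif3a, 0.218 ± 0.229 for Dync1i1 and 0.186 ± 0.237 for Dync1i2. Dync1li1 and Dync2li1 lay lower still, at 0.102 ± 0.127 and 0.00412 ± 0.00883, but with enough reads in only 10 neurons each. Dynll2 varied little, at 0.495 ± 0.0989, whereas Kif3b, at 0.404 ± 0.354, ran from 0 to 1.00.

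Adaptors and regulators of the motors were read from a list of 30 genes that are not among the 67 members, of which 26 were tested. The edgeR test called 0 higher and 0 lower, with 1 higher and 6 lower at an unadjusted p under 0.05, and DESeq2 called 1 higher and 15 lower. The higher gene was Mapk8ip1, which encodes the kinesin-1 adaptor JIP1, at a median of 249 normalized reads in dendrites and 101 in somas (log2 fold change 1.62, SE 0.75, edgeR adjusted p = 0.141, DESeq2 adjusted p = 0.00763). Among the lower genes was Kifap3, the kinesin-2 adaptor (-1.71, SE 0.75, edgeR adjusted p = 0.122). Others were Rhot2, a mitochondrial adaptor GTPase (-3.55, SE 1.37, adjusted p = 0.0881), and Pafah1b1, the dynein regulator Lis1 (-1.04, SE 0.51, adjusted p = 0.160). Kifap3 lay 0.22 and Rhot2 2.05 below the median gene, whereas Pafah1b1 lay 0.45 above it. The median of the list was -1.20, against -1.49 over all genes, and 15 of its 26 genes tested lay above the median gene. Of all genes tested, 3.55% were higher and 26.7% lower at an unadjusted p under 0.05 in the edgeR test. DESeq2 called 4.26% of all genes higher and 46.2% lower.

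The reads of a gene could also be divided among its 3′ ends. For the 2 most used ends of a gene, the distal fraction is the share of their reads on the end farther downstream, and it was compared between dendrites and soma of a neuron with an exact two-sided signed-rank test. Of 22 members with enough reads in at least 5 neurons, 4 had an unadjusted p under 0.1, as did 8.44% of all 3508 genes tested, and none of all the genes passed after adjustment. They were Dync1i2, Dctn5, Dctn3 and Dynll2.

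Dync1i2 had the largest shift. The mean in dendrites was 0.367 ± 0.341 (SD, n = 9) against 0.925 ± 0.148 for the somas, and the fraction was lower in the dendrites in 8 of 9 neurons (exact p = 0.0117, adjusted p = 0.818). In neurons 9, 10 and 13 the dendrites had 0 reads on the distal end and 15, 56 and 25 on the proximal end, while the somas had 6352, 2672 and 4231 distal reads. The distal end lies with the full-length transcripts at chr2:71263303. The proximal end is listed by the study at the end of a transcript that stops at chr2:71230541, which GENCODE M21 annotates as a retained intron of Dync1i2 and which lies 32762 bases before the end of the gene. Over all 16 neurons, the distal end was found in 10 dendrites and 16 somas (median normalized reads, 12.9 and 497). The proximal end had reads in 9 dendrites and 6 somas, with highest values of 618 and 357.

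The other shifts were small. The distal fraction was 0.956 ± 0.0372 in dendrites and 0.934 ± 0.0505 in somas for Dctn3 (n = 15, exact p = 0.0637), 1.00 and 0.988 for Dctn5 (n = 9, exact p = 0.0625) and 1.00 and 0.999 for Dynll2 (n = 16, exact p = 0.0742). For Dctn5 it was higher in the dendrites in 5 neurons and lower in 0, and for Dynll2 higher in 7 and lower in 2. Their proximal ends held at most 77 and 34 reads in a soma, and the dendrites mostly had fewer reads. The part of depth in these shifts was not tested. Kif5a, Kif5c and Kif1a had mean distal fractions of 0.984 or more in both compartments, with single samples down to 0.838 (Kif1a, soma of neuron 7). Kif5b varied from neuron to neuron, with 0.624 ± 0.361 in dendrites and 0.646 ± 0.253 in somas (n = 15, exact p = 0.762). For Kif2a the fraction was 0.575 ± 0.376 in dendrites and 0.811 ± 0.169 in somas, lower in the dendrites in 7 of 9 neurons (exact p = 0.129).

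**Figure D5:**
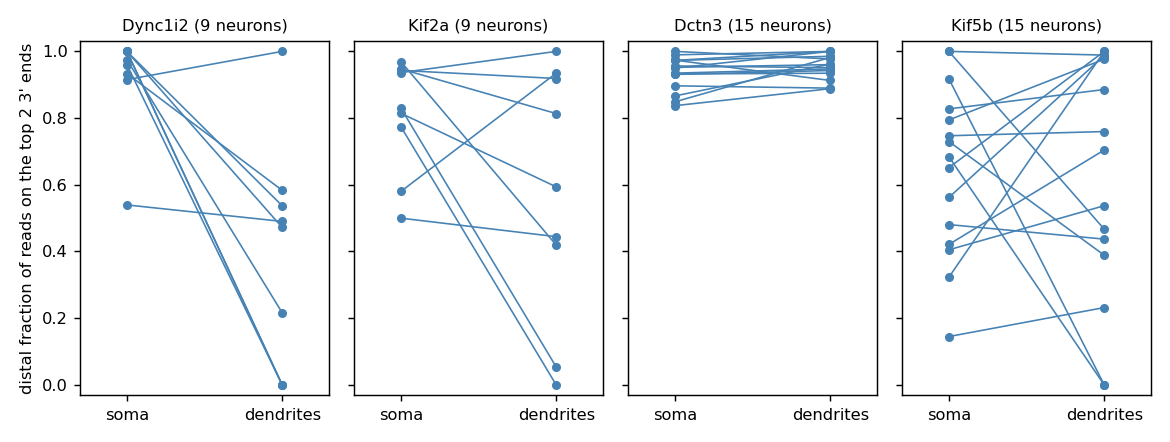
Distal fraction of the reads on the 2 most used 3′ ends of Dync1i2, Kif2a, Dctn3 and Kif5b, with a line for each neuron from its soma to its dendrites. For Dync1i2 8 of 9 lines fall, from a mean of 0.925 in somas to 0.367 in dendrites, while the lines of Kif5b run in both directions.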

How the data were processed

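The authors amplified poly-adenylated RNA by the aRNA method, an amplification by in vitro transcription, made strand-specific libraries, aligned trimmed reads to mm10 with STAR 2.4.0 and counted uniquely mapped reads with VERSE. The deposited values are counts, whole numbers without normalization, on the joined 3′UTRs of a gene, on windows of 500 nt before each annotated 3′ end (nearby ends were merged), and on exons. Reads carry no molecular identifiers, so precision was taken from the spread between neurons.

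The comparison took genes with 1 or more reads in 16 or more samples and was made with edgeR 4.0.16 in R 4.3.3 (TMM, quasi-likelihood test with robust fit, neuron as a block). The SE is the log2 fold change divided by the root of the test's F value. DESeq2 1.42.0 gave the size factors of normalized reads and an alternative test. Other values were computed with Python 3.11.15, NumPy 2.4.6 and pandas 2.3.3. The edgeR and isoform tests were tested on simulated data. Numbers called and log2 fold changes were recomputed with other tests, scalings, filters, exon counts, no block, the neurons of 2 or of 3 rounds, and without each neuron. Detected numbers, dendritic read fractions and distal fractions were recomputed with fewer alternatives and not without each neuron. Shares within a family were not recomputed, and the adaptor list had DESeq2 as its only alternative.

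Samples were paired by neuron, because dendrites and soma of a pair are parts of the same cell. Deviations from the compartment means correlated at 0.0851 ± 0.0741 (SD, n = 16) for the same neuron and -0.00533 ± 0.0515 (n = 240) for different neurons. No 2 libraries of a compartment held identical counts.

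On 3′ ends, the feature numbered 1 is the most downstream on both strands. Where the study's list gives a position at the end of a gene, it had that number in 69 of 81 cases on the plus strand and in 73 of 84 on the minus strand. Gene positions are from GENCODE M21 on GRCm38. Named genes are members called or with an unadjusted p under 0.05, the 8 of each family highest in dendrites, those with a distal fraction p under 0.1, and a fixed list of neuronal motors, and other members are given by counts or as examples. The members and lists were chosen with earlier results of these data known. Protein sequences were not used here.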

Additional observations from a re-analysis of the deposited data

How the results depend on the processing

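The numbers of motor genes called depended on the test and the scaling. Over all genes the median log2 fold change was -1.49 and moved to -1.74 with DESeq2's size factors, -1.59 in DESeq2, -1.28 on exon counts, -1.26 with at least 10 reads in 16 samples, -0.22 with no replicate block and -0.17 with no filter. From 0 kinesins called higher, the number went to 1 with no filter (Kif23), 4 with the median gene set to 0, 2 with at least 10 reads in 16 samples, 2 on exon counts, 1 with no replicate block, 2 in DESeq2 and, chosen after seeing the data, 2 with neurons 15 and 16 left out. From 0 kinesins called lower it went to 2 with DESeq2's size factors and 7 in DESeq2. From 0 dynein and dynactin genes called higher it went to 1 with the median gene set to 0. From 3 called lower it went to 0 with no filter, with at least 10 reads, with 2 rounds only and with 3 rounds only. The number was 1 with the median gene set to 0, with no replicate block and with neurons 15 and 16 left out. It was 2 on exon counts, 4 with DESeq2's size factors and 7 in DESeq2. Of all genes, no filter called 15 higher and 143 lower of 31102. The median gene set to 0 gave 590 higher and 89 lower of 10880. With 3 rounds only, 4 were called higher and 1 lower of 10869, so a count of 0 there could not set the motor genes apart. Leaving out each neuron in turn gave 0 to 2 kinesins higher, 0 to 1 lower, 0 to 0 dynein and dynactin genes higher and 1 to 3 lower. With fewer neurons or a stricter filter fewer genes or samples entered the test, and otherwise the cause was not tested. Kif5c was called in 11 and Kif1a in 6 of these 16 fits. The replicate block for neuron is the pairing of the design, and without it Kif1a was called higher and Dync1i2 and Dync1li1 were not called.

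Kif1a, Kif1b, Kif5a and Kif5c stayed positive, and Dync1i1, Dync1i2, Dync1li1, Dync2li1, Kif3a, Kif2a and Kif13a negative, under each alternative run. Signs that reversed belonged to genes that did not pass the edgeR test. With the median gene set to 0 the log2 fold change was 0.45 for Dctn4, 1.15 for Dctn6, 0.75 for Dync1h1, 0.62 for Dync1li2, 1.31 for Dynlrb1, 1.25 for Dynlt3, 0.82 for Kif21a, 1.13 for Kif21b, 0.56 for Kif3b, 1.16 for Kif3c and 0.25 for Klc1. With DESeq2's size factors and in DESeq2 it was -0.030 and -0.030 for Dynll2 and -0.012 and -0.010 for Kif5b. With at least 10 reads it was 0.082 for Dynlrb1 and 0.035 for Dynlt3. On exon counts it was 0.18 for Dynlrb1, 0.14 for Dynlt3, 0.27 for Kif21a and 0.13 for Kif3c. With no replicate block it was 0.40 for Dynlrb1, 0.45 for Dynlt3, 0.013 for Kif21b and 0.66 for Kif3b. With 3 rounds only it was 0.58 for Dctn6, 0.36 for Dynlrb1, 0.46 for Dynlt3, 1.36 for Kif17 and 0.30 for Kif21b. With neurons 15 and 16 left out it was 0.27 for Dctn6 and 0.22 for Kif21b. Leaving out a neuron gave -0.41 to 0.15 for Dctn6, -0.41 to 0.25 for Dynlrb1, -0.51 to 0.26 for Dynlt3, -0.47 to 0.12 for Kif21b and -0.46 to 0.10 for Kif3c.

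Counted at 1 read, dendrites held 20.9 and somas 24.2 kinesins. At 10 reads, 7 kinesins and 5 dynein or dynactin genes were found in at least 15 dendrites. In neurons with 2 rounds, 2 members had a different distal fraction at p under 0.1 in place of 4. Of those 4, Dctn3 (signed-rank p = 0.278), Dctn5 (0.125) and Dynll2 (0.156) no longer had a p under 0.1. Dync2li1 had a dendritic read fraction of 0.00412 ± 0.00883, which became 0.103 with TMM scaling and 0.0986 when neurons with 1 normalized read entered. Dendrite samples had fewer reads than somas at the median, and the part of depth in the values of the sparse members was not tested.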

Other observations

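A few of the sparse kinesin members had 3′UTR reads almost solely in 1 compartment, and they were picked out after their values were seen. Kif23 is a kinesin of the central spindle that is also known from dendrites of developing neurons. It had 418 3′UTR reads in 9 dendrites, 271 of them in neuron 14, and 0 in all 16 somas. A count of 0 allows up to 3 reads by counting error alone, without the spread between neurons. On exon counts Kif23 had 624 reads in 9 dendrites and 9 reads in 3 somas. It had too few samples with reads for the comparison. Without the filter edgeR called it higher in dendrites (adjusted p = 0.0286, 16 neurons). Because Kif23 was picked for its lack of soma reads, this call restates the choice and is no separate test. Of the 8 markers of dividing cells, the most widespread in dendrites was Top2a, with reads in 13 dendrites and 9 somas. Ccna2 had reads in 8 dendrites and 12 somas, Ccnb1 in 5 and 6 and Aurkb in 3 and 4. The remaining markers had reads in more dendrites than somas. Kif26a, an atypical kinesin, had 380 reads in 8 dendrites and 2 reads in 2 somas, and on exon counts 381 and 3 reads (adjusted p = 0.169 without the filter). Kif9 had 0 3′UTR reads in the dendrites and 229 in 6 somas, and on exon counts 9 reads in 5 dendrites and 232 in 7 somas. Kif16b had 16 3′UTR reads in 2 dendrites and 1297 in 12 somas, and on exon counts 21 reads in 5 dendrites and 2483 in 13 somas. Neither passed without the filter (edgeR adjusted p of 0.266 and 0.132). Kif27 had 254 3′UTR reads in the dendrites of a single neuron and 1 read in all somas, but its exon reads were spread over both compartments, with 649 in 9 dendrites and 84 in 7 somas.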
